A study of Mus musculus with 6 samples.

Results

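The genes described here make cholesterol and fatty acids and answer to the sterol regulatory element-binding proteins (SREBPs). They were chosen by name as a list of 32 genes, in pathway order: the SREBP factors with the proteins that hold, carry and cut them, the enzymes from acetyl-CoA to cholesterol, and the first enzymes of fatty acid synthesis. Of the 32, 31 were among the 18194 genes tested, and Acat2 was not analysed here. A gene was represented by the probe set (the group of array probes that reads a transcript) with the highest mean over all 6 samples. Expression was measured on single-colour arrays in cumulus cells, the somatic cells around the oocyte, of wild-type mice. In the hCG-6h group, eCG (a gonadotropin from pregnant mares that makes follicles grow) was given at 5 IU on day 21 of age and was followed 46 h later by 5 IU of human chorionic gonadotropin (hCG), which sets off ovulation, for 6 h. The hCG-0h group had the same 46 h of eCG and no hCG. The labels give an age of 23 days for all 6 samples. Each group held 3 samples, every one pooled from 50 complexes of oocyte and cumulus, and milrinone, an inhibitor of an oocyte phosphodiesterase, was in the handling medium of all of them at 5 µM. The descriptions of hCG-6h samples 2 and 3 say 7 h and 8 h, against 6 h in their titles. No mice were kept for the extra hours without hCG, so the hormone and the elapsed time cannot be told apart. Nothing in the labels says whether samples came from separate animals, so p-values measure the spread between these samples, which may be technical.

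SREBPs are made as precursors in the membrane of the endoplasmic reticulum, bound to the escort protein Scap. When sterols are plentiful, the Insig proteins hold Scap in place. When sterols run low, Scap carries the precursor to the Golgi, where the site-1 protease (Mbtps1) and the site-2 protease (Mbtps2) cut it, and the freed factor enters the nucleus and switches on genes of sterol and fatty acid synthesis, often together with the CCAAT-binding factor NF-Y. SREBP-2 (Srebf2) acts mainly on the cholesterol genes and SREBP-1c (a product of Srebf1) mainly on the fatty acid genes. In the mouse follicle, cumulus cells synthesise cholesterol, and oocytes, which make little of their own, depend on it. Granulosa-lineage cells also use cholesterol to make progesterone after the ovulatory signal.

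Promoter windows were looked up for the members because SREBP and NF-Y act near the start of their genes. RefSeq windows (GRCm38.p6) from 250 bases before to 50 bases after an annotated start matched 27 of the 32 members, some with more than 1 start. Motifs were read on both strands, and none overlapped another in the windows printed here. CCAAT stood in a window of 21 of the 27 (77.8%), against 41.1% of all 27025 genes with a window. Counted by window, it stood in 62.9% of the 35 windows of members and 37.4% of all 32851. The genes of this background were not matched to the members by level. The E-box CACGTG stood in 5 of 27 (18.5%), against 8.09% of all genes. The classic sterol regulatory element TCACNCCAC stood in 1 of 27, Hmgcs1, and in 1.44% of all genes. The cAMP response element TGACGTCA stood in 0 of 27 and in 2.03% of all genes. CCAAT stood in 8 of the 10 members with a window that passed the test below and in 13 of the 16 that did not. Printed here, 5′ to 3′ on the gene's strand, are the windows of the 5 members with the largest passed changes among those with a window and a motif, and that of Hmgcs1, added after the values were seen because it holds the sterol element. Capitals mark the motifs, with a CCAAT box on the other strand reading ATTGG. The windows are chr19:6067801-6068100 (minus strand) for Tm7sf2, chr8:64733529-64733828 (minus) for Msmo1, chr11:100527951-100528250 (minus) for Acly, chr10:76531355-76531654 (plus) for Lss, chr1:169969156-169969455 (minus) for Hsd17b7 and chr13:119690101-119690400 (plus) for Hmgcs1. Each covers the promoter side of the start and the first transcribed bases.
Tm7sf2: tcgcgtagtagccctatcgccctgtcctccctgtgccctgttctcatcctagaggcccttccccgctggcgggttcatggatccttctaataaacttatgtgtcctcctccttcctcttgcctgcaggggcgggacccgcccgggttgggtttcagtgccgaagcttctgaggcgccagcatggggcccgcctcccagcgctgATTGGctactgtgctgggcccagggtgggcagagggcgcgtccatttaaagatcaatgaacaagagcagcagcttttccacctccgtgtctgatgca
Msmo1: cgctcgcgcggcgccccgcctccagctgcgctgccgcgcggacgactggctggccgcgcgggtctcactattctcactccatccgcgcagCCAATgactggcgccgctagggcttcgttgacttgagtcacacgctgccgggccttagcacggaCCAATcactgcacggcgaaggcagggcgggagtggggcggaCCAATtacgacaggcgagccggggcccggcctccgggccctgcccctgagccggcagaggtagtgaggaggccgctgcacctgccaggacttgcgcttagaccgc
Acly: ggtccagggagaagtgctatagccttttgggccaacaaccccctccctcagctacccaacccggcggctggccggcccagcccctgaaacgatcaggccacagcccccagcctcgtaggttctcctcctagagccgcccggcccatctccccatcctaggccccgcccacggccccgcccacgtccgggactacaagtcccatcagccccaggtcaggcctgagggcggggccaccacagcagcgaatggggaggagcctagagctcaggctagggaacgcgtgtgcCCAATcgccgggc
Lss: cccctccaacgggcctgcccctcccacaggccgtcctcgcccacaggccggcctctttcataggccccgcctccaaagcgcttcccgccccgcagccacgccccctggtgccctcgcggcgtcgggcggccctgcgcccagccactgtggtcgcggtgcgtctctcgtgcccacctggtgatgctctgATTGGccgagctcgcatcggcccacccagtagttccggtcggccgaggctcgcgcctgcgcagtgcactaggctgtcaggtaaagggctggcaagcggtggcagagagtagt
Hsd17b7: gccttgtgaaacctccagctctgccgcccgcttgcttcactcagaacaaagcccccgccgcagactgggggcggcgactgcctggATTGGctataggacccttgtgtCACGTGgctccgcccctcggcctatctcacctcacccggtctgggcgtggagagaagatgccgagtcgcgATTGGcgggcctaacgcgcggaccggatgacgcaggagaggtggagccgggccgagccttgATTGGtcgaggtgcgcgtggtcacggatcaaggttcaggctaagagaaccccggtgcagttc
Hmgcs1: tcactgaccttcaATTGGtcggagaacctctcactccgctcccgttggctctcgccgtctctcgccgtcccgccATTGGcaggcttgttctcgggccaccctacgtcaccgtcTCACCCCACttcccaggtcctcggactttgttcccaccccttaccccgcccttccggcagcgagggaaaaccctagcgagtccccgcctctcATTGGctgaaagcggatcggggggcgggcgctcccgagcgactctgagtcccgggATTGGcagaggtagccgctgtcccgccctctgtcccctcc
Msmo1 held 3 CCAAT boxes, which began 160, 96 and 55 bases before the start, and Hsd17b7 held 3 and an E-box. In Hmgcs1 the sterol element began 137 bases before the start, between CCAAT boxes at 176 and 45 bases, and 2 further boxes lay outside these. In Acly the only box lay 37 bases after the start. These are matches of letters, not measured binding.

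The labels held up against genes of the ovulatory response: all 8 measured genes of a check list, such as Has2 (hyaluronan synthase) and Ptgs2 (prostaglandin synthase), rose at hCG-6h. Of 11 measured markers of cumulus and granulosa cells 7 fell and 0 rose, with a median log2 change of -1.03, and their summed linear level was 26800 to 28800 at hCG-6h and 39400 to 41400 at hCG-0h. Among them, the level at hCG-6h was 9.32-fold lower for Fshr, which encodes the FSH receptor, and 6.29-fold lower for Amhr2, which encodes a receptor of anti-Müllerian hormone. Inha, an inhibin subunit that did not pass, was bright in every sample, at 13.36 to 13.42 on the log2 scale at hCG-6h and 13.41 to 13.49 at hCG-0h. Of 13 measured oocyte markers Bpgm rose, at 10.09 to 10.37 at hCG-6h against 8.86 to 9.26 at hCG-0h. The other 12, set apart after the values were seen, lay between 3.56 and 7.83 and none passed. Their summed linear level was 607 to 685 at hCG-6h and 464 to 594 at hCG-0h. Leukocyte markers summed to 492 to 533 at hCG-6h and 401 to 511 at hCG-0h, with 1 of 8 rising (Cd52). Endothelial markers summed to 373 to 580 at hCG-6h and 198 to 379 at hCG-0h, with 0 of 6 passing. Cdh5 had the largest change of the 6, at 7.73 to 8.63 at hCG-6h against 5.74 to 7.52 at hCG-0h. Changes were positive in 3 of the 6 and negative in 3. Of 3 genes listed as theca markers Star rose, Ptch1 fell and Cyp17a1 did not pass (5.61 to 6.00 at hCG-6h against 5.42 to 6.20 at hCG-0h). Star is not particular to theca, and the cell type behind its rise was not tested. Red cell markers summed to 3310 to 3530 at hCG-6h and 3960 to 4110 at hCG-0h, and of the 4 Alas2 fell. Hba-a2, a globin gene that did not pass, was bright, at 11.61 to 11.71 at hCG-6h and 11.85 to 11.90 at hCG-0h. It made up most of that sum. Hba-a1, another globin gene, was dim, at 5.11 to 5.55 at hCG-6h and 4.86 to 5.20 at hCG-0h. Slc4a1 read 6.18 to 6.31 at hCG-6h and 6.06 to 6.14 at hCG-0h, and neither passed. The part of these in the results was not tested. In such bulk samples, fewer cells of a type and less RNA per cell cannot be told apart.

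Sterol and fatty acid synthesis did not move as a block. At hCG-6h 9 of the 31 members rose, 4 fell and 18 did not pass (limma, adjusted p under 0.05 over all 18194 genes). The 9 that rose were Insig1, Acly, Mvd, Sqle, Lss, Msmo1, Hsd17b7, Dhcr7 and Scd1, and the 4 that fell were Mbtps1, Mbtps2, Fdps and Tm7sf2. Over all genes tested 10.8% rose, 10.5% fell and 21.3% passed in either direction. Among the members 29.0% rose, 12.9% fell and 41.9% passed. All 31 members lay above the median gene by mean log2 value, and of the 9102 genes there 33.1% passed, 16.3% rising and 16.8% falling. In the reported fit the share of members that rose was thus above both backgrounds, and the share that fell was near the first and below the second. Neither background was matched to the levels of the members, which ran from the 56.7th to the 99.5th percentile of all genes. With a sample left out 4 to 6 members rose, and the excess was not tested. The changes were small: 1 of the 31, Scd1, reached 2-fold (10.9% of all genes did), and the median log2 change was 0.18, against 0.0067 over all genes.

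**Figure D1:**
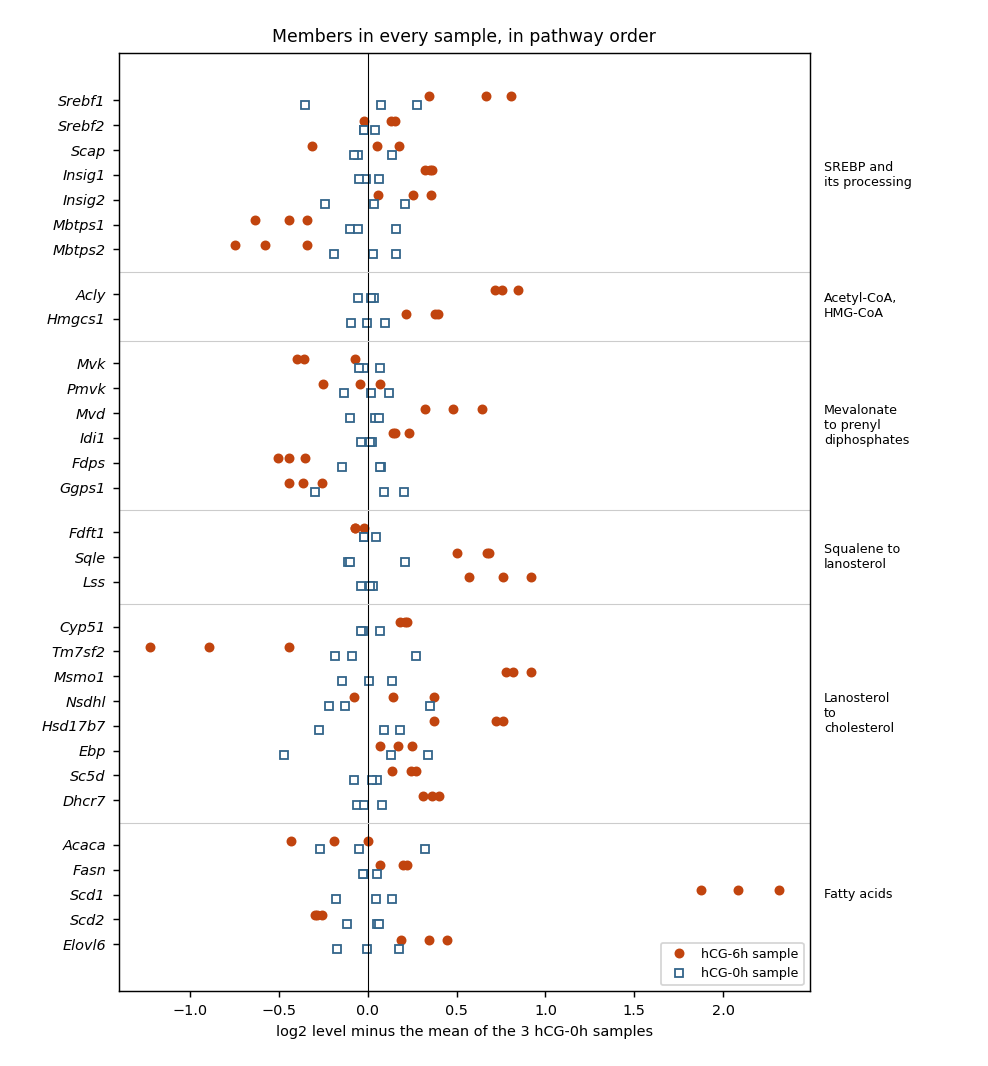
Log2 level of each member in every sample (horizontal axis), as the difference from the mean of the 3 hCG-0h samples, with the members in pathway order from top to bottom. Filled circles are the 3 hCG-6h samples and open squares the 3 hCG-0h samples; the groups do not overlap in 22 of the 31 members, and Scd1 stands far to the right.

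The samples of the 2 groups were fully apart in 22 of the 31 members (71.0%), 16 of them higher and 6 lower at hCG-6h. Over all genes this share was 37.9% (19.3% higher and 18.7% lower at hCG-6h), and among genes above the median level it was 52.4%. So 9 members were apart without passing the test, 7 with hCG-6h above (Srebf1, Hmgcs1, Idi1, Cyp51, Sc5d, Fasn and Elovl6) and 2 with hCG-6h below (Mvk and Scd2). Most calls rested on all 6 samples being present. Of the 13, 8 had an adjusted p between 0.03 and 0.05. When 1 sample was left out, 5, 5 and 5 members rose without hCG-6h sample 1, 2 and 3, and 6, 5 and 4 rose without hCG-0h sample 1, 2 and 3. Likewise 0, 1 and 1 fell without hCG-6h sample 1, 2 and 3, and 1, 1 and 1 without hCG-0h sample 1, 2 and 3. Acly, Lss, Msmo1 and Scd1 passed in all 6 of these fits. Sqle passed in 3, Mbtps2 in 2, Mvd, Fdps, Tm7sf2, Hsd17b7 and Dhcr7 in 1 each, and Insig1 and Mbtps1 in 0.

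**Figure D2:**
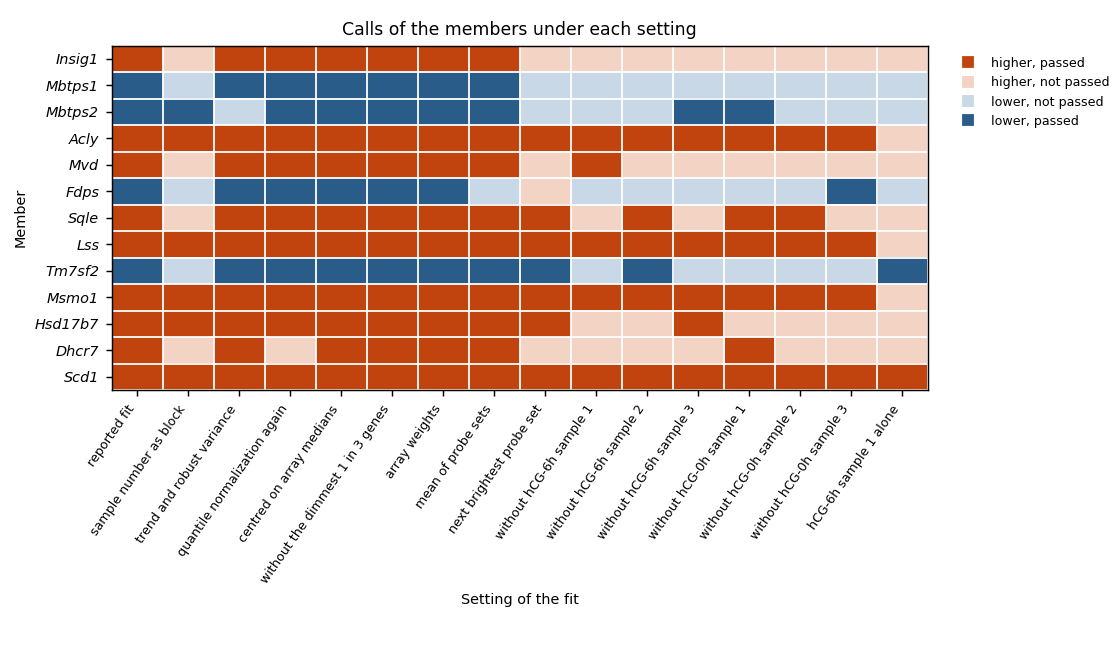
Call of each of the 13 members that passed (vertical axis) in the reported fit and under 15 other settings (horizontal axis). Dark cells passed at an adjusted p under 0.05 and pale cells did not, red for higher and blue for lower at hCG-6h; the row of Scd1 is dark throughout, and Acly, Lss and Msmo1 are pale only where hCG-6h sample 1 was used alone.

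In the machinery that senses sterols, the transcripts of both proteases fell and Insig1 rose, while the SREBP genes and Scap did not pass. Insig1, an SREBP target that retains Scap, stood at 12.06, 12.05 and 12.02 on the log2 scale at hCG-6h, against 11.69, 11.76 and 11.65 at hCG-0h. Its rise was 1.27-fold (log2 change 0.34 ± 0.09, SE, adjusted p = 0.0408), with the 3 hCG-6h samples close together and above all hCG-0h samples. Mbtps1, the site-1 protease, read 9.94, 9.75 and 10.04 at hCG-6h, against 10.28, 10.33 and 10.54 at hCG-0h, which was 1.39-fold lower (adjusted p = 0.0393). Mbtps2, the site-2 protease, read 7.82, 7.65 and 8.06 at hCG-6h, against 8.21, 8.43 and 8.56 at hCG-0h, 1.47-fold lower (adjusted p = 0.0407). All hCG-6h samples lay below all hCG-0h samples for both proteases, by 0.24 and 0.15 on the log2 scale at the nearest. With a sample left out the adjusted p was 0.0773 to 0.113 for Insig1, 0.0562 to 0.114 for Mbtps1 and 0.037 to 0.118 for Mbtps2. The other 2 probe sets of Mbtps1 had log2 changes of -0.64 and -0.36 and did not pass.

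Srebf1 read 9.20, 9.66 and 9.52 at hCG-6h, against 8.50, 8.93 and 9.13 at hCG-0h. The groups were apart by only 0.07, and the log2 change of 0.61 ± 0.20 missed the threshold (adjusted p = 0.0768). The array gave it a single probe set, so the SREBP-1a and SREBP-1c transcripts could not be separated. Srebf2, the factor of the cholesterol genes, read 11.37, 11.20 and 11.35 at hCG-6h, against 11.20, 11.20 and 11.26 at hCG-0h (log2 change 0.09, 95% confidence interval -0.15 to 0.32). Its dimmer probe set pointed the other way (log2 change -0.32). Scap was at 9.86 to 10.35 at hCG-6h and 10.10 to 10.31 at hCG-0h, with an interval of the log2 change of -0.39 to 0.33. Insig2, which like Insig1 retains Scap but is not a strong SREBP target, had a log2 change of 0.22 (interval -0.14 to 0.58), and its 3 probe sets disagreed in sign, with -0.35 for the second.

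**Figure D3:**
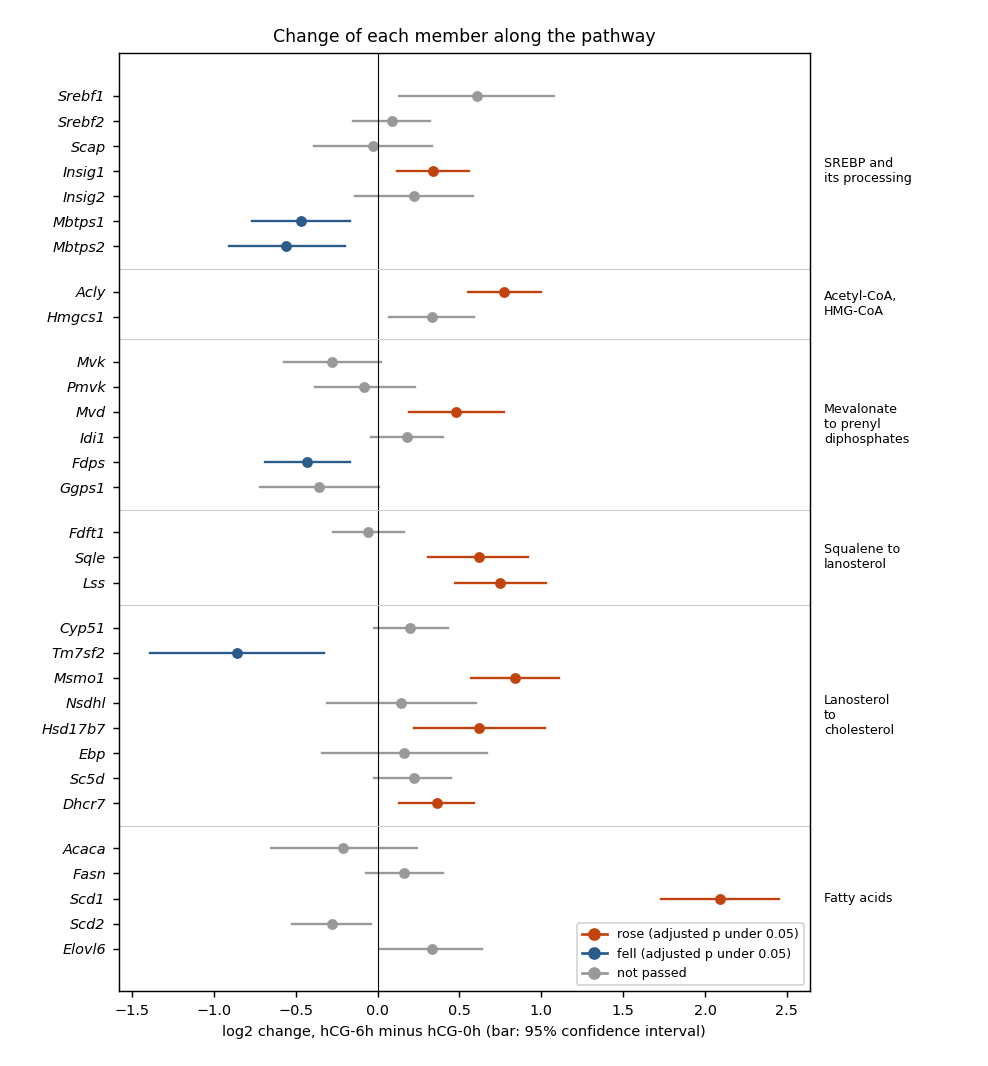
Log2 change of each member, hCG-6h minus hCG-0h (horizontal axis), with its 95% confidence interval, in pathway order from top to bottom. Red members rose, blue members fell and grey members did not pass. From Acly to Dhcr7 only Fdps and Tm7sf2 are blue, among red and grey members. Lss and Msmo1 stand at 0.75 and 0.84, Tm7sf2 at -0.86 and Scd1 at 2.09.

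At the entry of the pathway the transcript of an enzyme that supplies acetyl-CoA rose clearly. Acly, the ATP citrate lyase that makes cytosolic acetyl-CoA for both sterols and fatty acids, read 12.50, 12.54 and 12.63 at hCG-6h, against 11.73, 11.82 and 11.80 at hCG-0h. It rose 1.71-fold (log2 change 0.77 ± 0.10, adjusted p = 0.0019), and the gap between the groups, 0.68, was several times the range within either. All 5 of its other probe sets had positive changes, between 0.17 and 1.07. Hmgcs1, the HMG-CoA synthase whose promoter is printed above, was among the brightest genes, at 13.28, 13.12 and 13.30 at hCG-6h against 12.90, 13.00 and 12.81 at hCG-0h. Its groups were apart, but the log2 change of 0.33 ± 0.11 did not pass (adjusted p = 0.0761). It passed with a trended, robust variance (adjusted p = 0.00589). The 4 dimmer probe sets of Hmgcs1 had log2 changes of 0.49, 0.50, 0.50 and 1.57, and 3 of them passed in a fit over all 34958 probe sets.

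From mevalonate to the prenyl diphosphates the steps went both ways. Mvk and Pmvk, the kinases that phosphorylate mevalonate, had log2 changes of -0.28 and -0.08 and did not pass. Mvd, the decarboxylase that follows them, read 9.61, 9.77 and 9.93 at hCG-6h, against 9.33, 9.35 and 9.19 at hCG-0h, and rose 1.39-fold (adjusted p = 0.0315). The hCG-6h samples of Mvd spread more than those of hCG-0h, yet all lay above them. Idi1, the isomerase that gives the second isoprene unit, had a log2 change of 0.18 ± 0.09 and did not pass. Fdps, which joins the units into farnesyl diphosphate, read 10.72, 10.87 and 10.78 at hCG-6h, against 11.30, 11.29 and 11.08 at hCG-0h. It fell, to a level 1.35-fold lower (log2 change -0.43 ± 0.11, adjusted p = 0.0329), next to Mvd and Idi1, whose changes were positive. Its only other probe set was dim, with a mean of 3.64, and changed by 0.06. Ggps1, on the side branch to geranylgeranyl diphosphate, had a log2 change of -0.36 and did not pass (adjusted p = 0.159), though all 4 of its probe sets were negative; without hCG-0h sample 2 it passed (log2 change -0.50, adjusted p = 0.0458). With a sample left out the adjusted p was 0.0339 to 0.0956 for Mvd and 0.0357 to 0.101 for Fdps.

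At the entry into the sterol branch Fdft1 did not pass, and the next pair of enzymes rose. Fdft1, the squalene synthase, read 11.27, 11.32 and 11.27 at hCG-6h, against 11.32, 11.39 and 11.32 at hCG-0h, with a log2 change of -0.06 (interval -0.27 to 0.16). Sqle, the squalene epoxidase and a slow step of the pathway, read 10.91, 10.73 and 10.90 at hCG-6h, against 10.12, 10.44 and 10.13 at hCG-0h. It rose 1.53-fold (log2 change 0.62 ± 0.13, adjusted p = 0.016), with hCG-0h sample 2 nearest to the hCG-6h samples. Lss, which closes the ring to lanosterol, read 10.77, 10.96 and 11.12 at hCG-6h, against 10.23, 10.16 and 10.21 at hCG-0h. Its rise was 1.68-fold (log2 change 0.75 ± 0.12, adjusted p = 0.00544), and its other 2 probe sets gave 1.70-fold and 1.69-fold and also passed. With a sample left out the adjusted p stayed between 0.00748 and 0.0231 for Lss and lay between 0.0137 and 0.0557 for Sqle, which was not called without hCG-6h sample 1 or 3 or hCG-0h sample 3.

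Between lanosterol and cholesterol, 3 of 8 members rose (37.5%), 1 fell (12.5%) and 4 did not pass, against 10.8% rising and 10.5% falling over all genes. Msmo1, the sterol C4-methyl oxidase, read 10.97, 11.01 and 11.11 at hCG-6h, against 10.33, 10.20 and 10.05 at hCG-0h, the largest rise of the sterol enzymes measured here, at 1.79-fold (log2 change 0.84 ± 0.11, adjusted p = 0.00277). Hsd17b7, which works in the same demethylating complex as a ketoreductase, read 10.29, 10.33 and 9.94 at hCG-6h, against 9.66, 9.75 and 9.29 at hCG-0h, and rose 1.54-fold (adjusted p = 0.0429). The third enzyme of that complex, Nsdhl, overlapped between the groups, at 9.93 to 10.38 at hCG-6h and 9.79 to 10.36 at hCG-0h (log2 change 0.14, interval -0.31 to 0.60). Dhcr7, which reduces 7-dehydrocholesterol to cholesterol, read 11.78, 11.73 and 11.82 at hCG-6h, against 11.50, 11.36 and 11.40 at hCG-0h. It rose 1.28-fold (log2 change 0.36 ± 0.10, adjusted p = 0.0412), with no overlap of the groups. With a sample left out the adjusted p was 0.038 to 0.123 for Hsd17b7 and 0.0487 to 0.122 for Dhcr7. Cyp51, the lanosterol demethylase, and Sc5d, a desaturase, were also apart by sample but missed the threshold, with log2 changes of 0.20 and 0.22 (adjusted p = 0.186 for both). With the trended, robust variance Cyp51 passed (adjusted p = 0.0248). Ebp, the sterol isomerase, had a log2 change of 0.16 and spread widely at hCG-0h, at 9.73, 9.52 and 8.92.

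Tm7sf2, a sterol reductase of the step after Cyp51, ran against its neighbours. It read 6.97, 7.75 and 7.30 at hCG-6h, against 8.11, 8.01 and 8.47 at hCG-0h, and was 1.81-fold lower (log2 change -0.86 ± 0.22, adjusted p = 0.0363). The hCG-6h samples spread widely, and the nearest of them lay 0.26 below the hCG-0h samples. Lbr, the lamin B receptor, which carries the same reductase activity and stands outside the list, had a log2 change of 0.13 (interval -0.18 to 0.44) and did not pass. Tm7sf2 was the dimmest member by mean level rank, at the 56.7th percentile of all genes, and its fall was called in 1 of the 6 fits with a sample left out (adjusted p = 0.0165 without hCG-6h sample 2, and up to 0.106). The promoters of Tm7sf2, Lss, Msmo1 and Hsd17b7 hold a CCAAT box upstream of the start, but windows were printed only where they held a motif. Of all passed members with a window, CCAAT stood in Insig1, Acly, Mvd, Lss, Msmo1, Hsd17b7 and Dhcr7, which rose, and in Tm7sf2, which fell. The windows of Mbtps1 and Mbtps2, which also fell, held none. Whether the box goes with the direction of change was not tested.

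The dimmer probe sets of a member mostly changed in the same direction as the brightest, and often by more. Of the 31 members 21 had more than 1 probe set, with 41 further sets in all, and 38 of these 41 had the sign of the brightest set. In 25 of the 41 the change was larger in size than in the brightest set. Cyp51 had log2 changes of 0.20 at a mean level of 11.88, of 0.45 at 9.05 and of 0.81 at 8.67, and the last passed over all probe sets (adjusted p = 0.0396). Sc5d had 0.22 at a mean of 10.19, 1.01 at 7.45 and 0.95 at 6.79, the dimmer pair without passing. In the fit over all probe sets, the brightest sets of Insig1, Mbtps1, Mbtps2, Hsd17b7 and Dhcr7 missed the threshold. Their adjusted p was 0.057, 0.0504, 0.0504, 0.0521 and 0.0568, though 2 dimmer sets of Hsd17b7 passed. With the mean of all probe sets of a gene, 12 members rose, Hmgcs1, Cyp51 and Sc5d joining the 9 named above, and 3 fell, without Fdps. In 6 members (Acly, Mvd, Ggps1, Fdft1, Lss and Hsd17b7) the brightest set bears a suffix that the maker gives to sets some of whose probes can match other transcripts.

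**Figure D4:**
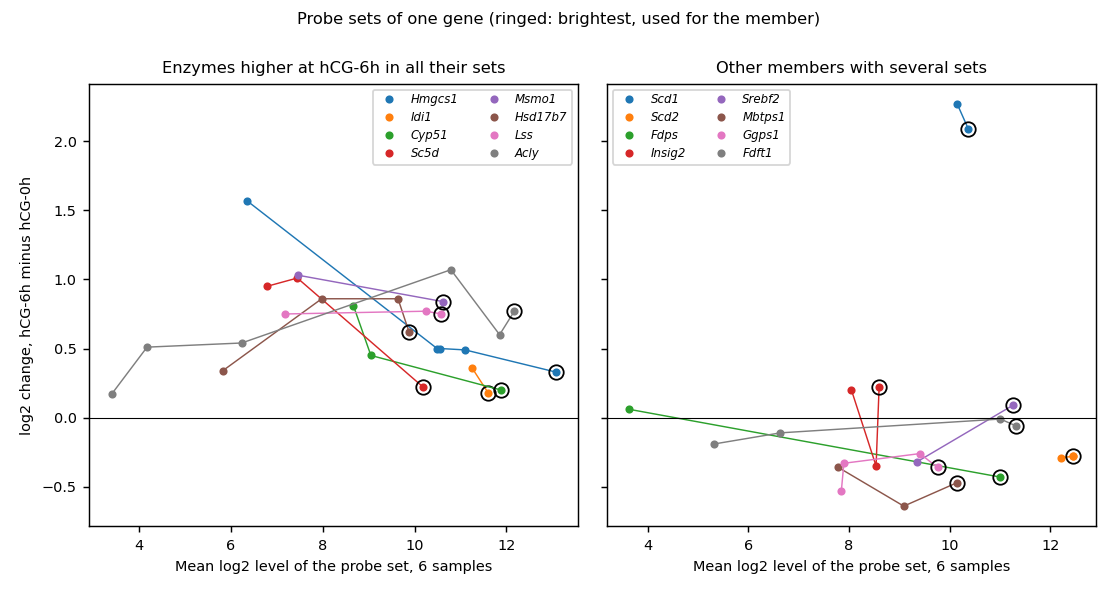
Log2 change, hCG-6h minus hCG-0h (vertical axis), against the mean log2 level over the 6 samples (horizontal axis) for every probe set of 16 members, joined by a line within a gene. Rings mark the brightest set of each gene; for Hmgcs1, Cyp51, Sc5d and Idi1 the ringed set has the smallest change, the 3 sets of Insig2 and the 2 of Srebf2 fall on both sides of 0, and the 2 sets of Scd1 stand above 2.

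In fatty acid synthesis a single desaturase stood out. Scd1, the stearoyl-CoA desaturase that makes oleate, read 11.20, 11.64 and 11.41 at hCG-6h, against 9.15, 9.37 and 9.46 at hCG-0h. It rose 4.26-fold (log2 change 2.09 ± 0.15, adjusted p = 0.000192), and its second probe set gave 4.81-fold. Scd1 passed under all 15 other settings, with an adjusted p of at most 0.0125. Its paralog Scd2, which carries out the same reaction, read 12.30, 12.31 and 12.34 at hCG-6h, against 12.48, 12.65 and 12.66 at hCG-0h. All 3 probe sets of Scd2 were lower in every hCG-6h sample, with log2 changes of -0.28, -0.28 and -0.29, but the gene did not pass (adjusted p = 0.0991). With a trended, robust variance in limma it did pass as lower (adjusted p = 0.00737), and with a sample left out the adjusted p was 0.0686 to 0.235. The 95% intervals of the paralogs' changes, 1.73 to 2.45 for Scd1 and -0.52 to -0.04 for Scd2, did not meet, while the difference itself was not tested.

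The other enzymes of fatty acid synthesis did not pass. Acaca, the acetyl-CoA carboxylase that commits carbon to fatty acids, read 9.68, 9.87 and 9.44 at hCG-6h, against 9.82, 10.19 and 9.60 at hCG-0h (log2 change -0.21, interval -0.65 to 0.24). Fasn, the fatty acid synthase, read 10.56, 10.71 and 10.69 at hCG-6h, against 10.54, 10.47 and 10.46 at hCG-0h, apart by 0.02 and without passing (log2 change 0.16, interval -0.07 to 0.40). Elovl6, which lengthens palmitate to stearate, the substrate of the desaturases, had a log2 change of 0.33 ± 0.13 (adjusted p = 0.138). All 3 of its probe sets were positive.

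Genes that work beside the members were taken from 5 lists, of which 54 of 66 genes were measured and 12 were not analysed here. Of the 54, 11 rose (20.4%), 12 fell (22.2%) and 31 did not pass. Over all genes 10.8% rose and 10.5% fell. Among genes above the median level, where most of the 54 lay, 16.3% rose and 16.8% fell. The median log2 change of the 54 was 0.09. With a sample left out, 8, 7 and 8 rose and 8, 7 and 7 fell without hCG-6h sample 1, 2 and 3, and 9, 7 and 11 rose and 11, 7 and 9 fell without hCG-0h sample 1, 2 and 3. Among 5 partners and further enzymes of sterol synthesis, Cyb5a, the cytochrome b5 that passes electrons to Sc5d, Msmo1 and the desaturases, read 11.30, 11.38 and 11.33 at hCG-6h, against 12.21, 12.27 and 12.40 at hCG-0h. It was 1.94-fold lower (adjusted p = 0.000931), whereas Cyb5r3, the reductase that feeds it, rose 1.39-fold and Cyb5b, the outer mitochondrial cytochrome b5, rose 1.40-fold. The rise of Cyb5b was called in 1 of 6 fits with a sample left out (adjusted p = 0.0198 without hCG-0h sample 3 and up to 0.0736).

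Of 18 measured SREBP targets in lipid uptake and synthesis, 3 rose (16.7%) and 5 fell (27.8%). Among all genes above the median level these shares were 16.3% and 16.8%, and over all genes 10.8% and 10.5%. Acss2, which makes acetyl-CoA from acetate, read 8.61, 8.55 and 8.81 at hCG-6h, against 7.18, 7.48 and 7.75 at hCG-0h, a rise of 2.28-fold (adjusted p = 0.00323). Acss2 and Acly, the enzymes of these lists that supply acetyl-CoA in the cytosol, thus both rose. Acacb, the mitochondrial acetyl-CoA carboxylase that restrains fatty acid oxidation, was 2.38-fold lower (7.09 to 7.27 at hCG-6h against 8.17 to 8.84 at hCG-0h, adjusted p = 0.00409), though its second probe set changed by only -0.23. Elovl5, an elongase of polyunsaturated fatty acids, was 1.83-fold lower (adjusted p = 0.000992) in both of its probe sets. Among 12 genes of the turnover of SREBP and of its partners, 1 rose (8.33%) and 5 fell (41.7%). Fbxw7, the ubiquitin ligase subunit that marks nuclear SREBP for destruction, rose 1.99-fold (10.30 to 10.42 at hCG-6h against 9.06 to 9.74 at hCG-0h, adjusted p = 0.00915). Paqr3, a Golgi anchor of Scap, and Tmed10, a cargo receptor of the early secretory route, were 1.89-fold and 1.74-fold lower. With a sample left out Paqr3 was called in 4 and Tmed10 in 2 of 6 fits (adjusted p up to 0.0614 and 0.0739).

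Enzymes that use the prenyl products were measured in 10 genes, of which 3 rose (30%) and 1 fell (10%). The shares over all genes were 10.8% and 10.5%. Rabggta and Pggt1b, subunits of the geranylgeranyl transferases of Rab and of other proteins, rose 1.68-fold and 1.49-fold (adjusted p = 0.00736 and 0.0173), with Pggt1b called in 3 of 6 fits with a sample left out. Coq2, which attaches the prenyl tail of ubiquinone, was 2.02-fold lower, at 7.96 to 8.26 at hCG-6h against 9.02 to 9.23 at hCG-0h (adjusted p = 0.00171). Of 9 genes of sterol export, esterification and the liver X receptor, 2 rose (22.2%) and 7 did not pass. Abca1, the exporter of cholesterol, read 10.36, 10.54 and 10.44 at hCG-6h, against 7.46, 7.57 and 8.13 at hCG-0h, and rose 6.62-fold. Osbp, a sterol carrier between endoplasmic reticulum and Golgi, rose 1.55-fold (adjusted p = 0.00678). Abcg1, a second sterol exporter, was dim in both groups, at 4.92 to 5.54 at hCG-6h and 4.76 to 5.20 at hCG-0h, and Mylip, a liver X receptor target, had a log2 change of -0.64 and did not pass.

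**Figure D5:**
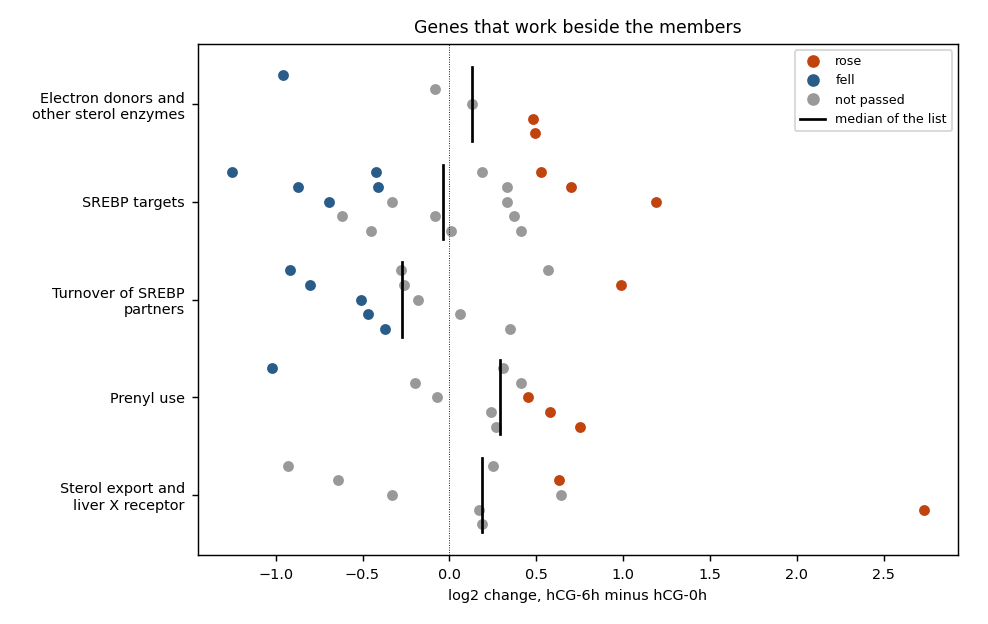
Log2 change, hCG-6h minus hCG-0h (horizontal axis), of the 54 measured genes of the 5 neighbouring lists (vertical axis), 1 point for each gene, red where it rose, blue where it fell and grey where it did not pass. Vertical bars are the list medians, from -0.27 to 0.29; Abca1 is the point at 2.73.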

How the data were processed

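The values the authors deposited are log2 expression for 45101 probe sets in 6 samples. They were made with RMA (background correction, quantile normalisation and summary of probes), GCOS and Affymetrix Expression Console 1.1, per the submitters' processing notes. RMA compresses folds of dim genes. Array medians lay between 6.43 and 6.46. No build is named in the sources used here.

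Probe sets were named from the platform annotation: 34958 had 1 symbol and were used, 932 had several and 9211 were not listed. By Entrez gene ID 99.4% of the 1-symbol sets matched the RefSeq gene table. The brightest set of each gene by mean over the 6 samples gave 18194 genes. limma 3.58.1 (R 4.3.3; lmFit, eBayes, group as the only term, two-sided) tested hCG-6h minus hCG-0h, with Benjamini-Hochberg adjustment over all genes and a threshold of 0.05; errors of log2 changes are SE. The number of arrays limits the precision.

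All members are named. Of the other pathway genes, up to 3 of each list that passed are named, by size of change, and 3 fixed by name were not analysed here; Lbr, Abcg1 and Mylip, and all markers singled out, were named after their values were seen. Members and lists were chosen with earlier results of these data known. Titles share sample numbers, but deviations of same-numbered samples correlated at 0.0113, -0.0157 and 0.0286, so no pairing was used. The fit was first tested on simulated data, with 50 genes changed at each of 4 sizes. It recovered 16% of log2 changes of 0.5, 58% of 1, 90% of 2 and 94% of 4, with 9 false calls among 138. Far fewer genes were changed there than were called in the data, so these shares need not hold here.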

Additional observations from a re-analysis of the deposited data

How the results depend on the processing

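Alternatives were a block for the sample number, trended robust variance, a second quantile normalisation, median-centred arrays, a filter on the dimmest 1 in 3 genes, array weights, the mean of probe sets, every probe set on its own, each sample left out, hCG-6h sample 1 alone (6 h in its description) and, chosen after seeing the data, the next brightest probe set. With the sample number as a replicate block, 6 members rose and 1 fell, in place of 9 and 4, and 7 other pathway genes fell in place of 12; not every sample deviated most like its own number. With every probe set on its own 2 members fell, and with the next brightest set 1 fell, Tm7sf2. The 10 members with 1 probe set, Tm7sf2 among them, kept the same log2 change with the next set and with the mean of sets. For these members both settings are no further check of the values. With hCG-6h sample 1 alone, where that sample is assumed to vary like the hCG-0h samples, 1577 genes were called in place of 3874, 1 member rose and 1 fell, and 2 other pathway genes rose and 4 fell. With each sample left out, 2920 to 3211 genes were called, 4 to 6 members rose and 0 to 1 fell, and 7 to 11 other pathway genes rose and 7 to 11 fell; fewer samples are in these fits. Of 465 values of members under 15 settings, 377 kept their direction and side of the threshold, 70 lost the call, 9 gained it and 9 changed sign. The sign changes, with no call, were Srebf2 at -0.12 (mean of sets) and -0.32 (next set), Scap at 0.04 and 0.11 (without hCG-0h sample 2 and hCG-6h sample 2; range -0.13 to 0.11 with a sample left out) and 0.05 (hCG-6h sample 1 alone), Insig2 at -0.35 and Fdps at 0.06 (next set), Pmvk at 0.01 (without hCG-6h sample 2; range -0.15 to 0.01) and Ebp at -0.07 (without hCG-0h sample 3; range -0.07 to 0.33). The causes were not tested. The 9 gained calls were Scd2 (lower), Hmgcs1 and Cyp51 with trended robust variance, Hmgcs1, Cyp51 and Sc5d with the mean of sets, Hmgcs1 with the next set, Ggps1 (lower) without hCG-0h sample 2, and Srebf1 with the block (adjusted p = 0.0372; 0.0633 to 0.197 with a sample left out). The median change of the members was 0.148 to 0.238 with a sample left out, the highest without hCG-0h sample 2. Small changes of bright genes are at the limit of 3 arrays a group.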
